A study of Mus musculus with 12 samples.

Results

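Messenger RNA of 87 genes for extracellular metalloproteases and their inhibitors was followed in mouse embryonic stem cells after depletion of Esrrb. The genes were taken by symbol: matrix metalloproteases (22 genes), Adams (33), Adamts enzymes (18), Adamts-like proteins (5), the meprin subunits Mep1a and Mep1b, the tolloid-like proteases Tll1 and Tll2, and the inhibitors Timp1 to Timp4 and Reck (5 in all). Bmp1 was left out of this set by the rule, and the rule uses no measured value. They were read by 112 probe sets that carry a single gene symbol, and they are 87 of the 19938 genes so measured. The cells were the AINV15 Esrrb Rescue Clone (Esrrb_R), 1 clone that expresses rtTA, the doxycycline (Dox) dependent activator. In every culture a constitutive short hairpin RNA silenced the endogenous Esrrb, and a GFP-tagged copy that resists the hairpin was driven by Dox. Cells of day 0 had 1 µg/ml Dox, and cells of days 1, 3 and 5 had been without it for that many days, in serum with Lif on gelatin. Each of the 4 days had 3 biological replicates, each on its own Affymetrix Mouse Gene 1.0 ST array. No array was made of cells kept with Dox for the same time, so loss of Esrrb, loss of Dox and time in culture cannot be told apart. Nothing in the labels says whether replicates were grown on separate occasions, so p-values measure the spread between these cultures.

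Metalloproteases of this group hold a zinc ion in the active site and act at the cell surface or in the space around it. Matrix metalloproteases cut collagens, laminins and other matrix proteins, Adams mostly release the outer part of membrane proteins such as growth factors and Notch, and Adamts enzymes cut proteoglycans and process collagens and fibrillins. Meprins and tolloid-like proteases belong to the astacin family. Timp proteins block the active site of most of these enzymes, and Reck is an inhibitor anchored in the membrane. In the early embryo these enzymes are known from implantation, from the basement membrane and from the shedding of signaling molecules. Most are made as inactive precursors, and a messenger RNA level says nothing of activity.

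The arrays gave 1 log2 signal for each gene and array, which can order the arrays for 1 gene but cannot order genes among themselves. After 5 days Esrrb itself fell by 3.40 log2 units (with a standard error, SE, of 0.07 and limma adjusted p = 2.7e-11). All 8 stem cell markers (Pou5f1, Sox2, Nanog, Utf1, Dppa5a, Sall4, Tdgf1 and Zfp42) were above background. Their mean log2 signal went from 12.24 to 12.29 on the day 0 arrays to 11.60 to 11.67 on those of day 5. At day 5, 7 of the 8 were lower, and Sall4 did not pass the test (0.12, limma adjusted p = 0.18). Nanog was lowest at day 1 (-0.80) and stood at -0.245 at day 5. Of 10 fibroblast markers, 3 lay under the background level on every day. The mean of the list ran from 6.96 to 7.09 at day 0, from 6.67 to 6.71 at day 3 and from 6.96 to 7.09 at day 5. The mean of 7 endoderm markers ran from 8.38 to 8.40 at day 0 and from 8.79 to 9.02 at day 5, and 6 of the 7 were higher at day 5. In bulk RNA such as this, fewer cells of a type and less RNA per cell cannot be told apart.

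Many of the 87 genes showed no signal above background. No detection calls came with the arrays, so a level was set at the 95th percentile of 1224 odorant, vomeronasal and taste receptor genes, a log2 signal of 6.21. On every day 33 of the 87 genes (37.9%) had a mean under it, against 26.4% of all genes. Among them were the Adam genes known from testis and sperm (Adam2, Adam3, Adam5, Adam18, Adam24, Adam25, Adam26a, Adam26b, Adam29, Adam32, Adam34 and Adam39), the collagenases Mmp1a, Mmp1b and Mmp8, the matrilysin Mmp7, Mmp20 of tooth enamel, Mep1a and Timp4. Near background an array compresses differences, so changes of these genes can be understated. Several of the testis Adams are close copies of one another that lie side by side, and probe sets may share signal between them. A probe set that matches Adam26a, Adam26b and Adam34 together was left out for that reason, as was 1 that names Adam4 with a predicted gene.

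At days 3 and 5 the set as a whole was called about as often as all genes, and its large changes belonged to a few genes. At day 1 it was called less often, with 5 genes or 5.75% against 10.93% of all genes. At day 1, 2 of the 87 genes were higher and 3 lower than at day 0 at an adjusted p under 0.05 from limma, where 6.45% of all genes were higher and 4.48% lower. At day 3, 9 were higher and 13 lower (all genes: 13.5% and 13.1%). At day 5, 16 were higher and 17 lower (all genes: 17.4% and 17.6%), with a median log2 change of -0.01 beside -0.02 for all genes. Over the whole time course 37 genes, or 42.5%, passed the F test, near the 45.6% of all genes. Of the 54 members above background on at least 1 day, 9.26% were called at day 1 and 53.7% at day 5. Among all genes above background the shares were 14.26% and 44.63%. The 3 arrays of a day lay wholly to 1 side of the day 0 arrays for 18 genes at day 1, 33 at day 3 and 39 at day 5, where the shares over all genes were 30.3%, 39.3% and 42.8%. A called change of at least 1 on the log2 scale was reached at day 5 by 9 genes, or 10.3%, where 3.4% of all genes did so. These were Mep1b, Tll1 and Adam23 downward and Timp2, Mmp25, Adam10, Adamts9, Adamts1 and Adamts5 upward. By family, 11 of 22 matrix metalloproteases, 9 of 33 Adams, 6 of 18 Adamts enzymes, none of 5 Adamts-like genes and all 5 inhibitors were called at day 5.

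**Figure D1:**
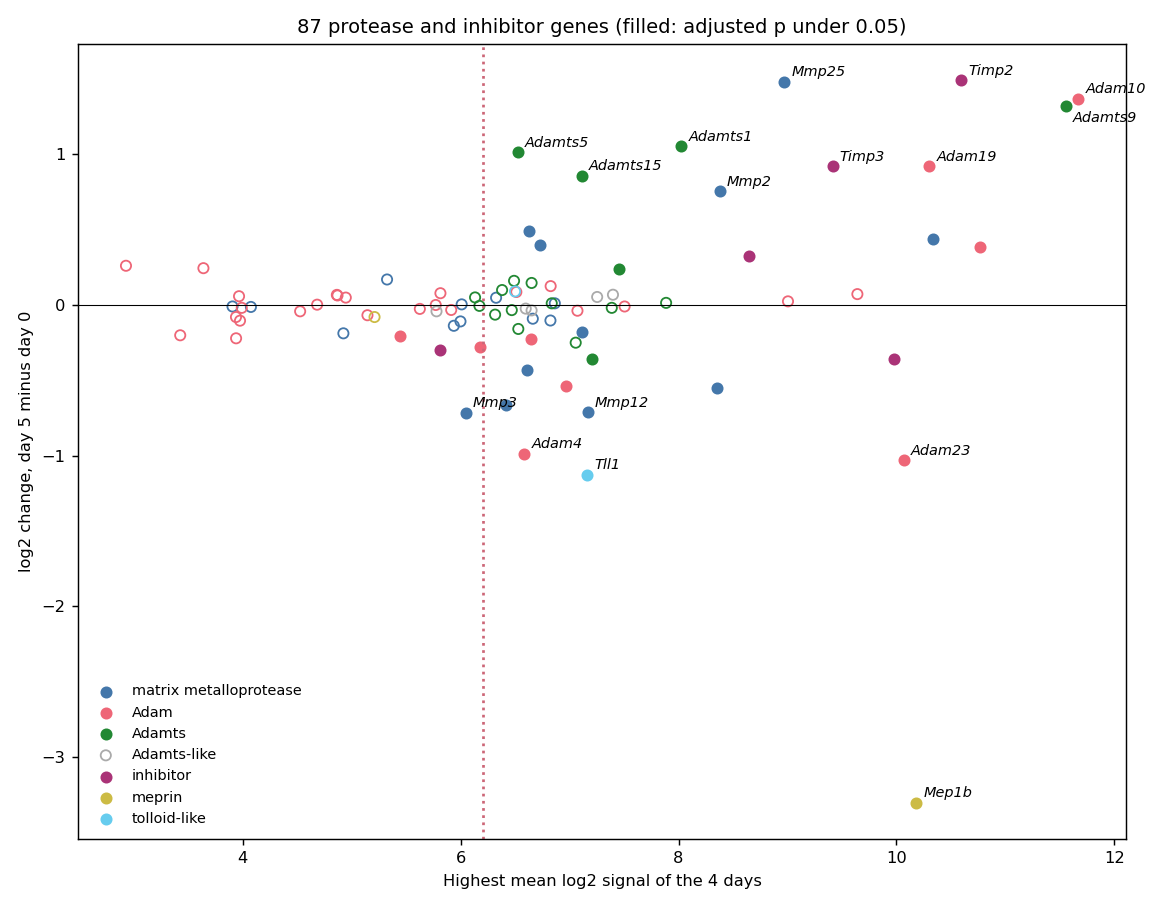
Log2 change from day 0 to day 5 of the 87 genes (vertical axis) against the highest of the 4 day means of log2 signal (horizontal axis), coloured by family, with filled points for an adjusted p under 0.05 and a dotted line at the background level of 6.21. Most points lie near 0, Mep1b stands lowest at -3.30, and Timp2, Mmp25, Adam10 and Adamts9 stand highest, between 1.32 and 1.49.

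Mep1b, the membrane-bound beta subunit of meprin, fell further than any other gene of the set and fell at each step. Its log2 signal was 10.20, 10.22 and 10.12 on the day 0 arrays and 9.23, 9.23 and 9.19 on those of day 1. It was 7.86, 7.89 and 7.94 at day 3 and 6.88, 7.18 and 6.57 at day 5. No arrays of different days overlapped, and the day 5 cultures were spread most. The change against day 0 was -0.96 at day 1 (limma adjusted p = 1.2e-04), -2.28 at day 3 and -3.30 at day 5 (SE 0.11, limma adjusted p = 7.3e-10). The steps from day 1 to day 3 (-1.32) and from day 3 to day 5 (-1.02) also passed the test. Mep1a, which encodes the secreted alpha subunit, stayed under the background level, between 4.99 and 5.30 on all arrays, with a change of -0.08 at day 5 (limma adjusted p = 0.35). Only one of the meprin genes was therefore measured above background.

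Of the tolloid-like proteases, which cut procollagens and the Bmp antagonist chordin, Tll1 fell and Tll2 did not pass the test. Tll1 read 7.47, 6.97 and 7.03 at day 0, then 6.79, 7.17 and 6.84 at day 1. It read 6.00, 5.92 and 6.00 at day 3 and 5.96, 6.12 and 6.02 at day 5, all under the background level. The day 1 arrays overlapped those of day 0, and those of days 3 and 5 lay below both. The change was -1.18 at day 3 and -1.13 at day 5 (SE 0.12, limma adjusted p = 9.6e-06), and since the later level is at background the true fall may be larger. Tll2 changed by 0.09 at day 5 (limma adjusted p = 0.38).

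**Figure D2:**
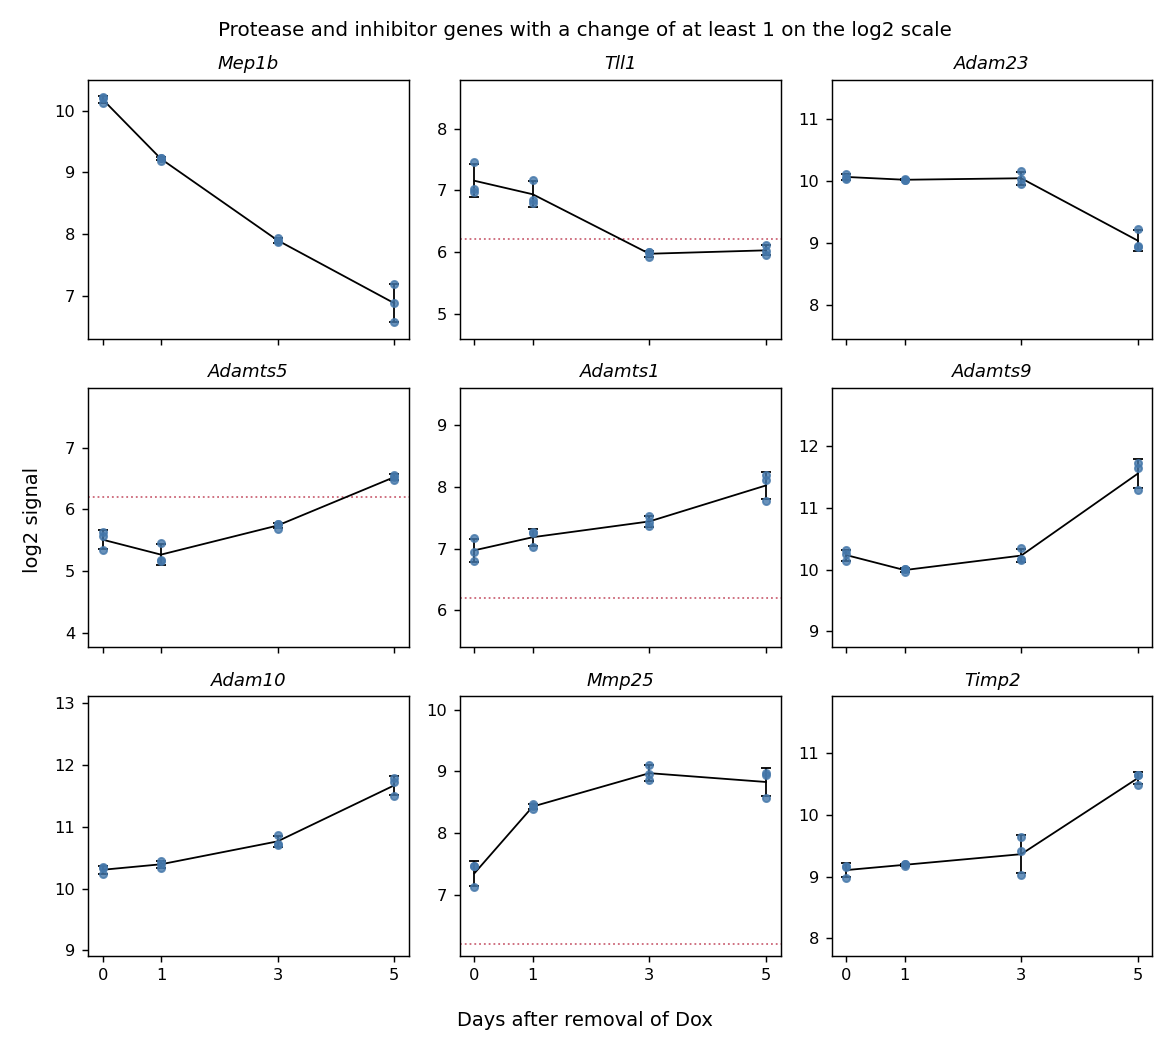
Log2 signal on each array (points) and the mean ± SD of the 3 arrays of a day, by day without Dox, for the 9 genes with a change of at least 1 with vertical axes of equal span. The dotted line marks the background level where it falls in the panel. Mep1b falls at every step to 6.88, Mmp25 is already up at day 1, and Adamts9, Timp2 and Adam23 move between days 3 and 5.

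Among the matrix metalloproteases, 2 rose from the first day on. Mmp25, a membrane-type enzyme held by a lipid anchor and known from leukocytes, read 7.46, 7.47 and 7.12 at day 0 and 8.44, 8.38 and 8.47 at day 1. At day 3 it read 8.86, 9.11 and 8.96, and at day 5 8.94, 8.56 and 8.98. All arrays without Dox lay above all arrays with Dox. The rise was 1.08 at day 1 (SE 0.12, limma adjusted p = 7.0e-05), 1.62 at day 3 and 1.48 at day 5 (limma adjusted p = 5.3e-07). The blood markers Ptprc and Itgam were under the background level on every day, while Cd68 was higher at days 1 and 5 by 0.37 and 0.29 (adjusted p = 0.037 and 0.044 from limma). The mean of these 3 markers ran from 6.58 to 6.64 on day 0, from 6.77 to 6.96 on day 1, from 6.48 to 6.63 on day 3, when Mmp25 was highest, and from 6.50 to 6.75 on day 5. The part of blood cells in the rise of Mmp25 was not tested.

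Mmp2, the gelatinase that cuts type IV collagen of basement membranes, took the same course at a smaller size. Its day 0 arrays read 7.57, 7.64 and 7.45, and those of day 5 read 8.28, 8.26 and 8.40. It was higher by 0.37 at day 1, 0.82 at day 3 and 0.76 at day 5 (SE 0.07, limma adjusted p = 2.0e-06), and the step from day 3 to day 5 did not pass the test (-0.07, adjusted p = 0.54). The other gelatinase, Mmp9, rose only late, from 6.33 ± 0.13 at day 0 to 6.73 ± 0.14 on day 5 (SD, 3 arrays each), a change of 0.40 (limma adjusted p = 0.0034) close to the background level. Mmp14, the membrane-type enzyme that activates the Mmp2 precursor together with Timp2, was lower at day 3 (-0.29, limma adjusted p = 0.0035) and higher at day 5 (0.44, limma adjusted p = 9.5e-05). It was the only 1 of the 87 genes called in opposite directions at these days. The related membrane-type genes Mmp16 (0.49, adjusted p = 0.0049) and Mmp17 (-0.18, adjusted p = 0.033) also passed the limma test at day 5, and Mmp24 did not (-0.10, adjusted p = 0.27). Mmp16 had a day 0 mean of 6.14, under the background level. The call of Mmp17 was lost without replicate 1 or 3 of day 0 (0.087 and 0.083) or replicate 1 or 2 of day 5 (0.077 and 0.12). With all arrays it was lost under quantile normalization (0.10), a trended robust variance (0.063), array weights (0.063) and a replicate block (0.051).

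Of the secreted matrix metalloproteases, Mmp3, Mmp11, Mmp12, Mmp13 and Mmp21 fell. Mmp3 (stromelysin 1), Mmp12 (macrophage elastase) and Mmp13 (collagenase 3) belong to a run of 10 matrix metalloprotease genes that follow one another on the same chromosome in the RefSeq annotation of GRCm38.p6, in the order Mmp13, Mmp12, Mmp1b, Mmp3, Mmp1a, Mmp10, Mmp8, Mmp27, Mmp20 and Mmp7. The promoters of such genes are known for an AP-1 site, to which Fos and Jun factors bind, next to a TATA box. Bases directly before the annotated start of transcription are shown for the 3 genes that fell. They are shown also for Mmp10, a neighbour with the same motif that did not pass the test. Mmp3 and Mmp10 were under the background level on every day, so a fall of Mmp10 could have been missed. Each stretch is 110 bases from RefSeq, GRCm38.p6, plus strand, 5′ to 3′, with the letters TGAGTCA on either strand and TATAAA in capitals. They lie at chr9:7445712-7445821 (Mmp3), chr9:7347264-7347373 (Mmp12), chr9:7272404-7272513 (Mmp13) and chr9:7502232-7502341 (Mmp10).
Mmp3: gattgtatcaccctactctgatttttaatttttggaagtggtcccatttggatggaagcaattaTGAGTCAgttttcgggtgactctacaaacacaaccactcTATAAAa
Mmp12: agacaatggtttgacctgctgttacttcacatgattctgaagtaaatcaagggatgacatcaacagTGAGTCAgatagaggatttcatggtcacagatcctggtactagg
Mmp13: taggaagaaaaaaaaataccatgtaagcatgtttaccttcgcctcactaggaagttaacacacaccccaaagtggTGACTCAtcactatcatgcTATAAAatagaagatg
Mmp10: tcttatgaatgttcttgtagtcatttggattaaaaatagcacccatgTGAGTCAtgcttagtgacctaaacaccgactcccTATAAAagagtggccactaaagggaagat

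The stretch of Mmp12 precedes the downstream one of its starts, and the 110 bases before its other start hold neither motif. Promoters here are windows of 300 bases, from 250 before to 50 after a start. In the table used 55 of the 87 genes have one. Mep1b, the gene that fell furthest, has none and was not searched. The letters TGAGTCA, searched on both strands, occurred in 7 of the 10 neighbours (Mmp13, Mmp12, Mmp1b, Mmp3, Mmp1a, Mmp10 and Mmp7) and in 10 of the 55 genes, where 5.95% of all 27025 genes had a match. The TATAAA letters, searched on the strand of the gene, occurred in 8 of the 10 neighbours and in 9.77% of all genes. Mmp12 was among these 8, although the 110 bases before each of its starts hold no TATAAA. The Esrrb response element TCAAGGTCA, searched on both strands, occurred in none of the 55 genes and in 0.466% of all genes, and its shorter core AAGGTCA, which lies within it, in 2 of the 55 (Adamtsl5 and Mmp1a) and in 5.38% of all. A match is a string of letters and not a bound site, and the windows hold only the nearest bases.

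Of these 10 neighbours 3 were lower at days 3 and 5 and the other 7 did not pass the test on any day. Among all genes 13.1% were lower at day 3 and 17.6% at day 5. Of the 5264 genes under background on every day, 167 were lower at day 3 and 288 at day 5. Mmp12 read 7.07, 7.23 and 7.19 at day 0, and 6.46, 6.56 and 6.35 at day 5. It changed by -0.55 at day 3 and by -0.71 at day 5 (SE 0.08, limma adjusted p = 1.1e-05). Mmp3 changed by -0.61 and -0.71 (adjusted p = 6.6e-05 at day 5 from limma) although its day means were under the background level throughout, and Mmp13, close to that level, by -0.60 and -0.66 (adjusted p = 6.9e-04 at day 5). At day 1 each of the 3 missed the threshold, and from day 3 to day 5 none changed further (adjusted p = 0.16 to 0.76 from limma). For each of them the arrays of days 3 and 5 all lay below those of day 0. Changes of the other 7 at day 5 ran from -0.19 for Mmp8 to 0.17 for Mmp27, and 8 of the 10 genes, all but Mmp12 and Mmp13, were under the background level on every day. Outside the run, Mmp11 (stromelysin 3) went from 8.36 ± 0.09 to 7.80 ± 0.06 on day 5 (SD, 3 arrays each), a change of -0.55 (limma adjusted p = 8.2e-06). Its smaller change at day 3 (-0.20, limma adjusted p = 0.025) was lost without day 0 replicate 2 (0.10), day 3 replicate 1 (0.073) or day 3 replicate 3 (0.083). Mmp21, known from left-right patterning, was lower at day 5 (-0.43, limma adjusted p = 0.0053), when its mean of 6.04 was under the background level.

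**Figure D3:**
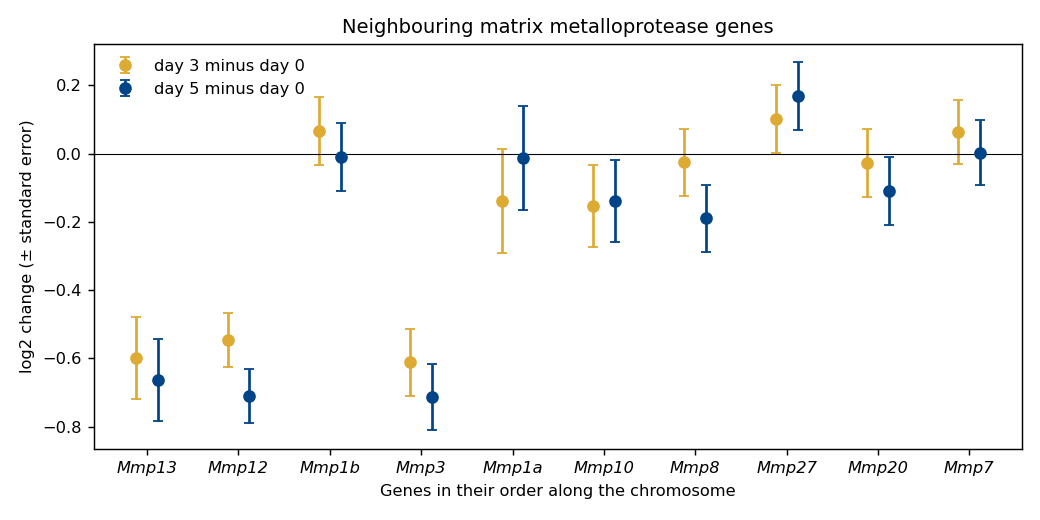
Log2 change at day 3 and day 5 against day 0 with its standard error, for the 10 matrix metalloprotease genes in their order along the chromosome. Mmp13, Mmp12 and Mmp3 lie between -0.55 and -0.71 at both days, and the other 7 lie between -0.19 and 0.17.

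Of the 33 Adams, Adam10, Adam17 and Adam19 were higher at day 5, and Adam4, Adam12, Adam20, Adam22, Adam23 and Adam30 were lower. The small changes of Adam12 (-0.23), Adam20 (-0.21) and Adam30 (-0.28) lost their call under quantile normalization and without any of several single arrays (adjusted p up to 0.15, 0.094 and 0.21). Adam20 and Adam30 were also under the background level on every day. Adam10, which releases the outer part of Notch receptors and cadherins, read 10.33, 10.35 and 10.23 at day 0 and 10.40, 10.44 and 10.34 at day 1. It read 10.86, 10.71 and 10.72 at day 3 and 11.49, 11.79 and 11.73 at day 5. The day 3 and day 5 arrays lay above all earlier ones. The rise was 0.46 at day 3 (limma adjusted p = 6.9e-04) and 1.37 at day 5 (SE 0.08, limma adjusted p = 3.5e-08), with 0.91 of it between days 3 and 5. Adam17, which sheds Egf family ligands and tumor necrosis factor, rose by 0.38 at day 5 (SE 0.06, limma adjusted p = 1.6e-04). Adam19, a sheddase of neuregulins, had day 0 arrays at 9.40, 9.32 and 9.42 and day 5 arrays at 10.13, 10.38 and 10.38, a rise of 0.92 (SE 0.08, limma adjusted p = 1.3e-06). Adam15 did not pass the test against day 0 on any day, with 0.02 at day 5 (limma adjusted p = 0.82). From day 1 to day 3 it fell (-0.22, limma adjusted p = 0.021).

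Adam23 and Adam22 are relatives without protease activity that bind Lgi proteins at synapses. Adam23 read 10.12, 10.03 and 10.05 at day 0, 10.02, 10.02 and 10.03 at day 1 and 9.95, 10.03 and 10.16 at day 3. At day 5 it read 8.93, 9.23 and 8.95. The fall came after day 3: the change against day 0 was -0.02 at day 3 (adjusted p = 0.89) and -1.03 at day 5 (SE 0.08, limma adjusted p = 4.6e-07). Adam22 was lower at day 1 (-0.28, limma adjusted p = 0.018), near its day 0 level at day 3 (-0.00, adjusted p = 0.98) and lower again at day 5 (-0.54, adjusted p = 2.5e-05). The day 1 call was lost without day 0 replicate 2 (adjusted p = 0.065) or any of day 1 replicates 1, 2 and 3 (0.054, 0.060 and 0.059). Adam4, a testis gene, changed by -0.99 at day 5 (SE 0.26, limma adjusted p = 0.0082), but its day 0 arrays, at 7.13, 6.01 and 6.62, were spread over more than the change itself.

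Of the Adamts enzymes that cut large proteoglycans, Adamts1, Adamts5, Adamts9 and Adamts15 rose, and Adamts4 and Adamts8 did not pass the test at day 5. Adamts9 was read by 6 probe sets, which rose by 1.14 to 1.44 at day 5. Averaged over them it was 10.32, 10.14 and 10.25 at day 0, 10.01, 10.02 and 9.96 at day 1, 10.35, 10.16 and 10.18 at day 3, and 11.29, 11.72 and 11.65 at day 5. The day 5 arrays stood apart from all others, with a change of 1.32 (SE 0.10, limma adjusted p = 3.1e-07). At day 1 all arrays lay below those of day 0, a change of -0.24 that did not pass the test (adjusted p = 0.15) except without day 5 replicate 1 (0.037).

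Adamts1 and Adamts5 are neighbours on the chromosome and both rose. Adamts1 went from 7.17, 6.80 and 6.95 at day 0 to 7.43, 7.36 and 7.53 at day 3 and 8.20, 7.77 and 8.11 at day 5, a rise of 1.05 (SE 0.12, limma adjusted p = 1.1e-05). Adamts5, the main aggrecanase of cartilage, had day 0 arrays at 5.57, 5.33 and 5.63, under the background level, and day 5 arrays at 6.56, 6.48 and 6.53, just over it. Its rise of 1.01 (SE 0.09, limma adjusted p = 1.3e-06) may therefore be understated. Adamts15 rose by 0.86 at day 5 (SE 0.10, limma adjusted p = 1.5e-05) from a day 0 mean close to background (6.26). Its chromosomal neighbour Adamts8 did not pass the test at day 5 (-0.25, adjusted p = 0.072) after being lower at day 1 (-0.37, adjusted p = 0.034). The day 1 call of Adamts8 was lost without replicate 2 or 3 of day 0 (0.072 and 0.10) or replicate 1 or 2 of day 1 (0.14 and 0.060).

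Some other Adamts genes were highest at day 3. Adamts10, Adamts6 and Adamts19 were higher at day 3 by 0.45, 0.37 and 0.44 (adjusted p at most 0.0032 from limma), and Adamts10 and Adamts6 are known for their work on fibrillin. Of these Adamts10 was still higher at day 5 (0.24, adjusted p = 0.011). The day 0 means of Adamts6 (6.12) and Adamts19 (6.21) were close to the background level. Adamts14, which trims the end of procollagens, was lower at day 5 (-0.36, limma adjusted p = 1.6e-04). Adamts3, of the same function, was read by 16 probe sets and changed by -0.06 (adjusted p = 0.40), and the 5 Adamts-like genes, which lack a protease domain, changed by -0.04 to 0.07 at day 5 and passed no test.

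All 5 inhibitors were called at day 5, in both directions. Timp2, which blocks matrix metalloproteases and joins Mmp14 in activating Mmp2, had day 0 arrays at 9.16, 8.98 and 9.17 and day 1 arrays at 9.20, 9.18 and 9.20. It read 9.64, 9.03 and 9.42 at day 3 and 10.49, 10.65 and 10.65 at day 5. The day 3 cultures were spread over both sides of the day 0 mean, and the day 5 arrays lay above all others. The change was 0.26 at day 3 (adjusted p = 0.14, and 0.0036 without day 3 replicate 2) and 1.49 at day 5 (SE 0.12, limma adjusted p = 5.6e-07), the largest rise at that day, beside 1.48 for Mmp25. Timp3, which binds the matrix and also inhibits Adam17 and aggrecanases, rose by 0.56 at day 3 and by 0.92 at day 5 (SE 0.10, limma adjusted p = 6.1e-06). Its day 0 arrays read 8.63, 8.50 and 8.36, and those of day 5 read 9.29, 9.46 and 9.49.

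Timp1, a secreted inhibitor, read 9.86, 10.10 and 9.98 at day 0, 9.15, 8.86 and 9.13 at day 3 and 9.63, 9.67 and 9.56 at day 5. It was thus lowest at day 3 (-0.93, SE 0.08, limma adjusted p = 3.2e-06), and at day 5 it was still lower than at day 0 (-0.36, adjusted p = 0.0043). Reck rose by 0.33 at day 5 (SE 0.09, limma adjusted p = 0.010), but not once day 5 replicate 3 was left out (0.051). Timp4, under the background level on every day, was lower by a change of -0.30 (adjusted p = 0.026), which was lost when replicate 1 or 3 of day 0 (0.055 and 0.11) or replicate 1 or 3 of day 5 (0.079 and 0.085) was left out.

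**Figure D4:**
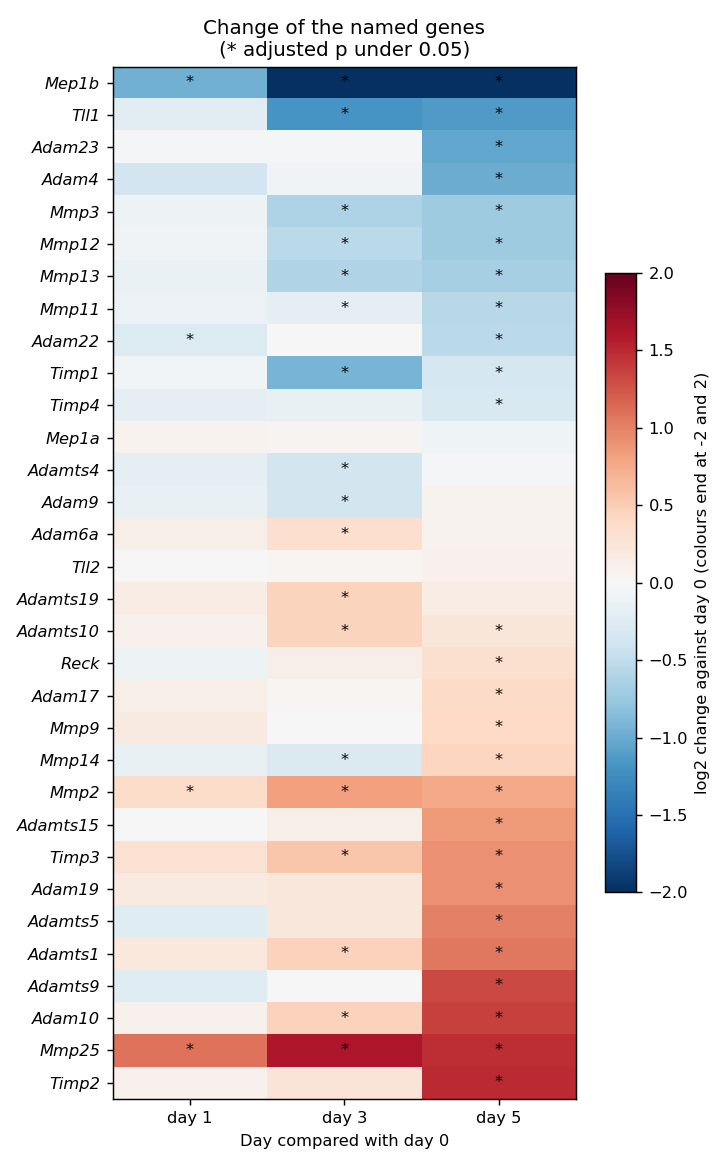
Log2 change at days 1, 3 and 5 against day 0 for 32 of the genes, ordered by the change at day 5, with a star for an adjusted p under 0.05; the colours end at -2 and 2. Mep1b, Mmp2 and Mmp25 are the only ones of the 87 genes starred on all 3 days, and most of the stars at day 5 have none at day 1.

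By time, 18 genes were called at day 5 and not at day 3, and 11 of these also changed from day 3 to day 5 itself (Adam4, Adam17, Adam19, Adam22, Adam23, Adamts5, Adamts9, Adamts15, Mmp9, Mmp16 and Timp2). Another 14 were called in the same direction at days 3 and 5, and 7 were called at day 3 and not at day 5. There were 46 called on none of the 3 days. Of all genes 26.55% were called at day 3 and 35.01% at day 5. The share of all genes with each course was not computed, so these counts describe the 87 genes only. In the last interval, after day 3, 15 of the 87 rose and 9 fell, where 13% of all genes rose and 12.2% fell. Of the 7 endoderm markers 5 rose in that interval, among them Gata4 by 0.68 and Sox17 by 0.76 (adjusted p = 1.6e-04 and 4.3e-06 from limma), while Ttr fell (-0.51, limma adjusted p = 0.0032) and Afp was under the background level on every day. Of 5 trophoblast markers 2 rose in the same interval and none fell. These were Eomes by 1.10 and Gata3 by 0.81 (limma adjusted p = 0.0010 and 5.3e-05). The part of endoderm or trophoblast cells in the late rise of Timp2, Adam10 and Adamts9 was not tested.

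The course of 7 of the 87 genes (8.05%) turned after day 3, with the step up to day 3 and the step after it both called and opposite in sign, a share near the 7.39% of all genes. Timp1, Mmp14, Adam9 (a sheddase also called meltrin gamma) and the aggrecanase Adamts4 were lower at day 3 and rose afterward, and Adamts10, Adamts19 and Adam6a were higher at day 3 and fell afterward. Adam6a was under the background level on every day. Adam9 was lower by a change of -0.37 at day 3 (limma adjusted p = 0.0019) and at 0.07 from day 0 at day 5 (adjusted p = 0.51). Adamts4 changed by -0.37 (adjusted p = 0.0021) and -0.02 (adjusted p = 0.87).

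Some fibroblast markers dipped at day 3 as well. Of 10, 5 (Col1a1, Col1a2, Col3a1, Postn and Dcn) were lower and 1 (Thy1, 0.37) was higher at day 3, and none was lower and 1 (Twist2) was higher at day 5. Of all genes 13.1% were lower and 13.5% higher at day 3, and 17.6% were lower and 17.4% higher at day 5. Col1a1, a chain of type I collagen, stood at -0.98 at day 3 and -0.02 at day 5, and Col1a2 at -1.44 and -0.20 (adjusted p at most 2.0e-05 at day 3 from limma). Lum, Fap and Postn were under the background level on every day, and Dcn was under it at day 3 (6.10). Of 5 trophoblast markers 1, Eomes, was lower at day 3 as well (-0.71, limma adjusted p = 0.016). The line is kept on mouse embryonic fibroblasts, although the methods place these experiments on gelatin without feeder cells. The part of such cells in the dip of Timp1, Mmp14, Adam9 and Adamts4 was not tested.

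**Figure D5:**
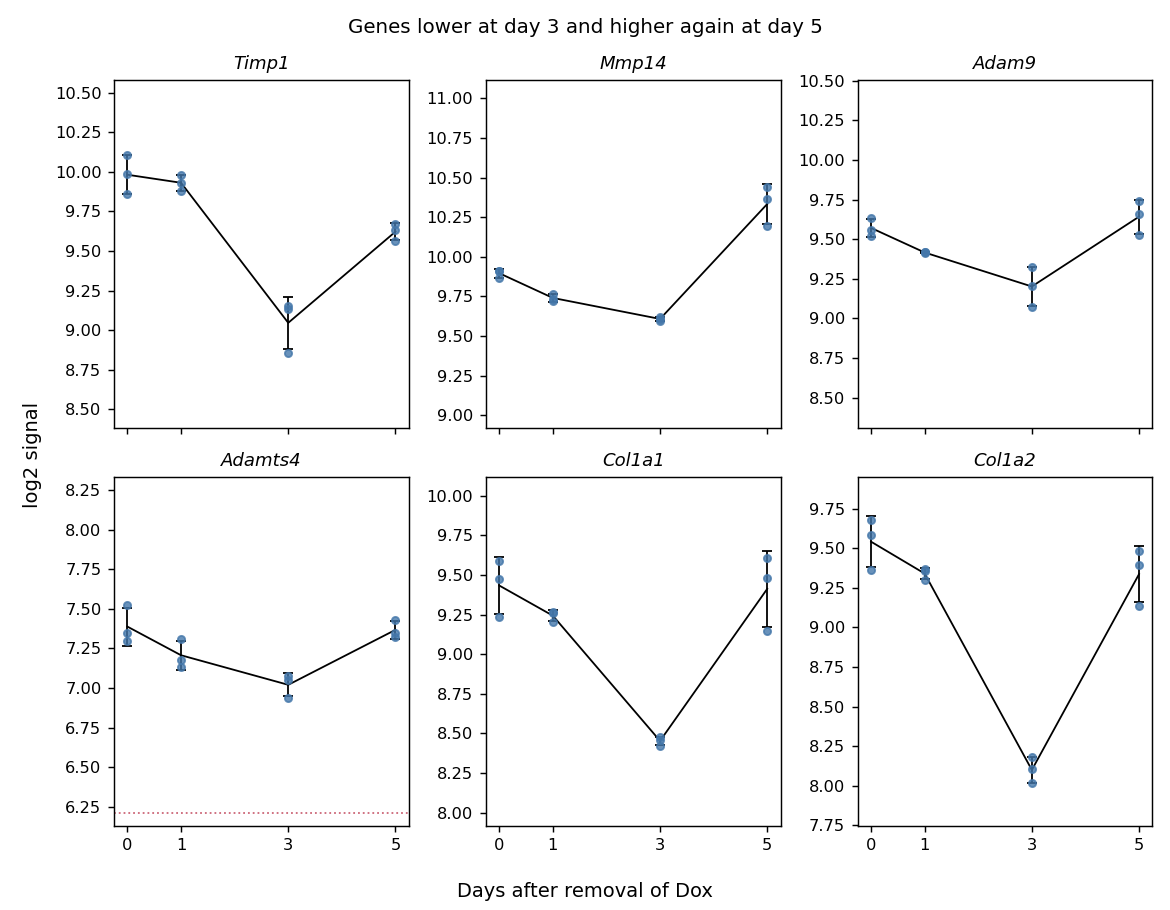
Log2 signal on each array (points) and the mean ± SD of the 3 arrays of a day for Timp1, Mmp14, Adam9 and Adamts4 and for the collagen genes Col1a1 and Col1a2, by day without Dox, with vertical axes of equal span. Each gene is lowest at day 3, where Timp1 stands at -0.93 and Col1a2 at -1.44 from day 0.

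Genes that work with these enzymes were read from lists of other metzincins, convertases, partners of Adam10 and Adam17, shed ligands and substrates of Adamts enzymes. At day 5 the test called 8 of the 30 higher and 4 lower, a share of 40% beside 35.01% of all genes. Bmp1, the founding tolloid protease, rose by 0.72 at day 5 (SE 0.06, limma adjusted p = 5.4e-07), while Tll1 fell. Among 4 convertases, which cut the precursors of many of these proteases, Pcsk6 changed by -0.83, -1.32 and -1.58 at days 1, 3 and 5 (adjusted p = 7.6e-09 at day 5), and Furin and Pcsk7 rose by 0.54 and 0.26 at day 5. Of 9 partners of Adam10 and Adam17, 2 were higher and 2 lower at day 5. Rhbdf1, an inactive rhomboid protein that helps Adam17 mature, rose by 1.02 (adjusted p = 9.1e-09), and Tspan5, a tetraspanin that escorts Adam10, by 0.78 at day 1 and 0.84 at day 5 (adjusted p = 1.2e-07). The tetraspanins Tspan15 and Tspan17, which also bind Adam10, changed by -0.52 and -0.42.

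Of 7 ligands that Adams release, Hbegf rose by 1.03 at day 5 (limma adjusted p = 1.4e-07) and Ereg changed by -1.09 (adjusted p = 7.9e-06), and Nrg1 was highest at day 1 (0.64). Of 5 substrates of Adamts enzymes, Vcan, the proteoglycan versican, rose by 0.72 at day 5 (SE 0.08, limma adjusted p = 1.3e-05), and Ncan, or neurocan, was higher at day 3 only (0.56, adjusted p = 3.4e-04). The other 3, Acan, Bcan and Fbn2, passed no test against day 0.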

How the data were processed

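The authors hybridized RNA of 12 cultures to Affymetrix Mouse Gene 1.0 ST arrays, normalized them by the Robust Multichip Average in Expression Console (version not given in the sources used here) and deposited them as log2 values between 1.61 and 14.69. Of 35557 probe sets 21789 carried 1 symbol in GEO's platform annotation, and those of a gene were averaged, following the study's methods. Array medians ran from 6.92 to 7.05.

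All 19938 genes were fitted with limma 3.58.1 in R 4.3.3, with a mean for each day (8 residual degrees of freedom) and Benjamini-Hochberg adjustment over all genes at 0.05. The methods' analysis of variance was an alternative. The fit was tested on simulated data. Tables and plots were made with Python 3.11.15, pandas 2.3.3, numpy 2.4.6 and matplotlib 3.10.9.

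The genes and lists were chosen with earlier results of these data known. Named were all inhibitors, meprins, tolloid-like genes, Mmp2, Mmp9, Mmp14, Adam10 and Adam17, called genes with a change of at least 0.5, and genes that turned. Of each list of companion genes up to 2 were to be named. Other genes named, such as Adamts14, Adamts8, Mmp16, Mmp17, Mmp21, Adam15 and further companions, and the motifs TGAGTCA and TATAAA, were chosen after the values were seen. Replicate numbers were not used to pair the arrays in the main fit (see the closing part). Protein sequences were not used here, so no comparison of active sites was made. The number of arrays limits the precision.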

Additional observations from a re-analysis of the deposited data

How the results depend on the processing

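The counts of genes called held within 1.5 times under a replicate block, quantile normalization, median centring, a trended robust variance, omission of background genes, the brightest probe set, array weights and, for single comparisons, a fit of only the days compared. With each array left out in turn, the count called ran from 4 to 6 at day 1 (5 with all arrays), 18 to 23 at day 3 (22), 29 to 32 at day 5 (33), 15 to 20 from day 1 to day 3 (19), 18 to 25 from day 3 to day 5 (24) and 32 to 38 over the time course (37). The methods' analysis of variance with Bonferroni correction kept 3 of the 87 genes, and with a 2-fold range of day means also 3 (Adam10, Adamts9 and Mep1b), of 771 and 420 among all genes. At the 90th percentile of receptor genes 25 genes would be at background, at the 99th 56 genes would be at background, and at the median of all genes 65. Where a gene is near background, the signal limits what can be seen. Of 956 recomputed values of called changes of genes named by rule, 943 were still called, 13 were not and none changed sign. Of the changes not called, 16 values gained a call, among them day 3 values of Adam19 (0.22) and Timp2 (0.42 without day 3 replicate 2). Sign changed in 28 values of changes not called, and the largest change whose sign changed was 0.068 in size. Most genes named by rule were named for a called change, which favours keeping the call. Among the other genes, the day 3 calls of Adam8, Adamts12 and Adamts14 were lost in several settings (limma adjusted p up to 0.14, 0.20 and 0.099). Same-numbered arrays did not deviate together (correlations from -0.17 to 0.07 over 18 pairs, and 2 of 12 arrays closest to their own number). This cannot show whether same-numbered cultures were grown together. With the replicate block 5, 21, 32, 17, 24 and 35 genes were called in the order above, and 17 of the 30 companion genes passed the F test, as many as without it (17 to 18 with an array left out).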
